A study of Mus musculus with 189 samples.

Results

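Kdm6a (Utx) and Kdm6b (Jmjd3) are 2 of the 192 transcripts assayed by quantitative RT-PCR in mouse oocytes and preimplantation embryos, and 2 of the 156 assays that the study's quality control marked as passed. They were taken by name as KDM6-family histone demethylases; the assay for another family member, Uty, did not pass that control and was not used. Both are set beside Ezh2, the enzyme that works against them. Each sample was lysed directly into the reverse transcription and preamplification mix and read on BioMark chips as a threshold cycle (Ct), the cycle at which an amplicon becomes visible, so that 1 cycle stands for about 1 doubling. A level is 30 minus the Ct after subtraction of the average of that quantity over the control genes Hnrnpr, Ssu72 and Ube2e1. It is a log2 value, and a Ct of 30 marks a transcript that was not detected.

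No group carried an altered gene or a treatment: the samples were MII oocytes from superovulated F1 females (C57BL/6 x DBA/2), and embryos of such females mated to C57BL6 males, cultured in KSOMaa medium at low oxygen. The stage comparisons used 168 samples: 11 MII oocytes, 14 zygotes, 21 samples of the 2-cell, 7 of the 3-cell, 12 of the 4-cell, 27 of the 8-cell, 26 of the 16-cell and 50 of the 32-cell stage. They came from 58 oocytes or embryos (11, 14, 8, 3, 6, 7, 2 and 7 in that order). The 2-, 4- and 8-cell samples included 3 whole embryos of each stage. The 16- and 32-cell samples were single blastomeres or small groups of them, and 6 whole embryos, 3 of each of these stages, were kept apart. Blastomeres of 1 embryo are not replicates, so they were averaged and the oocyte or embryo was the replicate. The 11 2-cell blastomeres whose titles name no embryo were counted as 1. Further samples were 10 aliquots of RNA from embryonic stem cells (ESC), between 25 and 800 pg, and 1 isolated inner cell mass and 1 isolated trophectoderm. How many females gave the oocytes and embryos was not given in the sources used here, so p-values measure the spread between these oocytes and embryos.

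Trimethylation of lysine 27 on histone H3 (H3K27me3) is placed by Polycomb repressive complex 2, in which Ezh2 or its paralogue Ezh1 is the catalytic subunit and Eed and Suz12 are core partners. Kdm6a and Kdm6b remove methyl groups from the same lysine through a Jumonji C domain. Kdm6a is X-linked, is found in COMPASS-like complexes with the H3K4 methyltransferases of the Mll3 and Mll4 type, and escapes X inactivation, whereas Kdm6b is autosomal and best known as an inducible demethylase. In GRCm38.p6, Kdm6a lies on chromosome X from 18160862 to 18279936, Kdm6b on chromosome 11 from 69398508 to 69420367 and Ezh2 on chromosome 6 from 47530274 to 47595270. Amplicon positions were not given in the tables used here.

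Control-gene Ct averaged 12.9 in both MII oocytes and zygotes and between 14.9 and 17.5 in the later stages, where samples held less template. The oocyte transcripts Dazl, ZP3 and Brdt were detected in 11 of 11 MII oocytes and Nanog in none, and all 10 ESC RNA samples held Nanog, Pou5f1, Sox2, Klf2 and Esrrb. At this depth Kdm6b and Ezh2 gave a signal in 168 of 168 samples and Kdm6a in 166. Both samples without Kdm6a signal were 32-cell blastomere samples, replicates 29 and 42, with control-gene Ct of 17.19 and 18.77 against 13.8 to 20.2 in the other 48. Kdm6b and Ezh2 were measured in both of them. Their Kdm6a values, -12.81 and -11.23, are bounds set by the Ct of 30. The main Kdm6a differences that rest on them are also given without them. Levels, gaps and SDs of 32-cell embryos include them.

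Kdm6a was highest in the oocyte and zygote and declined towards the blastocyst. In MII oocytes its normalized level ran from 0.81 to 2.37 with a median of 0.98, and in zygotes from 0.90 to 1.91 with a median of 1.39. In 2-cell embryos it ran from -1.03 to 0.58 with a median of -0.13, so that no 2-cell embryo reached the lowest zygote. Between the 3-cell and the 16-cell stage the levels overlapped. The 3-cell embryos measured -0.64, -0.56 and 0.16, the 4-cell embryos lay between -1.23 and 0.22 (median -0.63), and the 8-cell embryos between -2.27 and 0.22 (median -0.83). The 16-cell embryos were at -1.09 and -0.95, and the 32-cell embryos between -3.49 and -1.63 (median -1.85), all of them below both 16-cell embryos. The lowest 32-cell embryos, at -3.49 and -2.58, hold the samples without Kdm6a signal. Over the 48 32-cell samples with signal the level ran from -4.47 to -0.14, with a median of -1.52.

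The order of Kdm6a means was zygote (1.47 ± 0.32, SD, n = 14), MII oocyte (1.15 ± 0.45, n = 11), 2-cell (-0.16 ± 0.59, n = 8), 3-cell (-0.35 ± 0.44, n = 3), 4-cell (-0.62 ± 0.50, n = 6), 8-cell (-0.91 ± 0.74, n = 7), 16-cell (-1.02 ± 0.10, n = 2) and 32-cell (-2.20 ± 0.67, n = 7). Neighbours in this order differed by more than the larger of their SDs only between the MII oocyte and the 2-cell stage and between the 16- and 32-cell stages. In a limma fit across all 156 genes with Benjamini-Hochberg adjustment, Kdm6a fell by 1.63 ± 0.23 (SE) on the log2 scale from zygote to 2-cell embryo (adjusted p = 1.77e-08), a step at which 68.6% of all genes changed and the median gene moved by -0.33. From MII oocyte to 16-/32-cell embryos Kdm6a fell by 3.09 ± 0.24 (adjusted p = 2.58e-17), where 84.6% of genes changed. Without the 2 samples lacking Kdm6a signal the last value was -2.73 (adjusted p = 1.46e-16).

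Relative to the 3 control genes, no step between these ends passed the test for Kdm6a. Its difference was -0.46 ± 0.28 between 2- and 4-cell embryos (adjusted p = 0.197), -0.29 ± 0.29 between 4- and 8-cell embryos (adjusted p = 0.44) and -0.11 ± 0.42 between 8- and 16-cell embryos (adjusted p = 0.911). Between 16- and 32-cell embryos it was -1.18 ± 0.42 (adjusted p = 0.0575). Both last steps depend on the reference. In the deposited normalized table, which is relative to other control genes, Kdm6a fell by 1.98 (adjusted p = 4.08e-04) and by 2.34 (adjusted p = 2.40e-04) at these steps, and by 0.77 (adjusted p = 0.0474) between 2- and 4-cell embryos. The fall between 16- and 32-cell embryos also passed with sample medians as the reference (-1.43, adjusted p = 0.0187), without Hnrnpr (-1.35, adjusted p = 0.0409), without Ube2e1 (-1.35, adjusted p = 0.0351) and with the whole 16- and 32-cell embryos added (-1.40, adjusted p = 1.44e-04). Without the 2 samples lacking Kdm6a signal it was -0.72 (adjusted p = 0.229). Embryo sex was not among the labels used here. The Y-linked Kdm5d was detected in 10 of 12 4-cell, 3 of 27 8-cell, 0 of 26 16-cell and 11 of 50 32-cell samples. The part of embryo sex in the steps of the X-linked Kdm6a was not tested.

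Kdm6b followed another course, with a minimum at the 4- and 8-cell stages. Its normalized level ran from -0.44 to 0.57 (median -0.22) in MII oocytes and from -0.77 to 0.53 (median -0.31) in zygotes. In 2-cell embryos it ran from -2.72 to -0.50 (median -1.27), which overlapped the zygotes, and the 3-cell embryos measured -2.56, -2.41 and -1.43. In 4-cell embryos it ran from -3.97 to -1.96 (median -3.39) and in 8-cell embryos from -3.95 to -2.31 (median -2.98), below every MII oocyte and zygote. The 16-cell embryos sampled as blastomeres stood at -1.20 and -0.94, above every 4- and 8-cell embryo, and the 32-cell embryos between -1.95 and -0.24 (median -1.02).

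**Figure D1:**
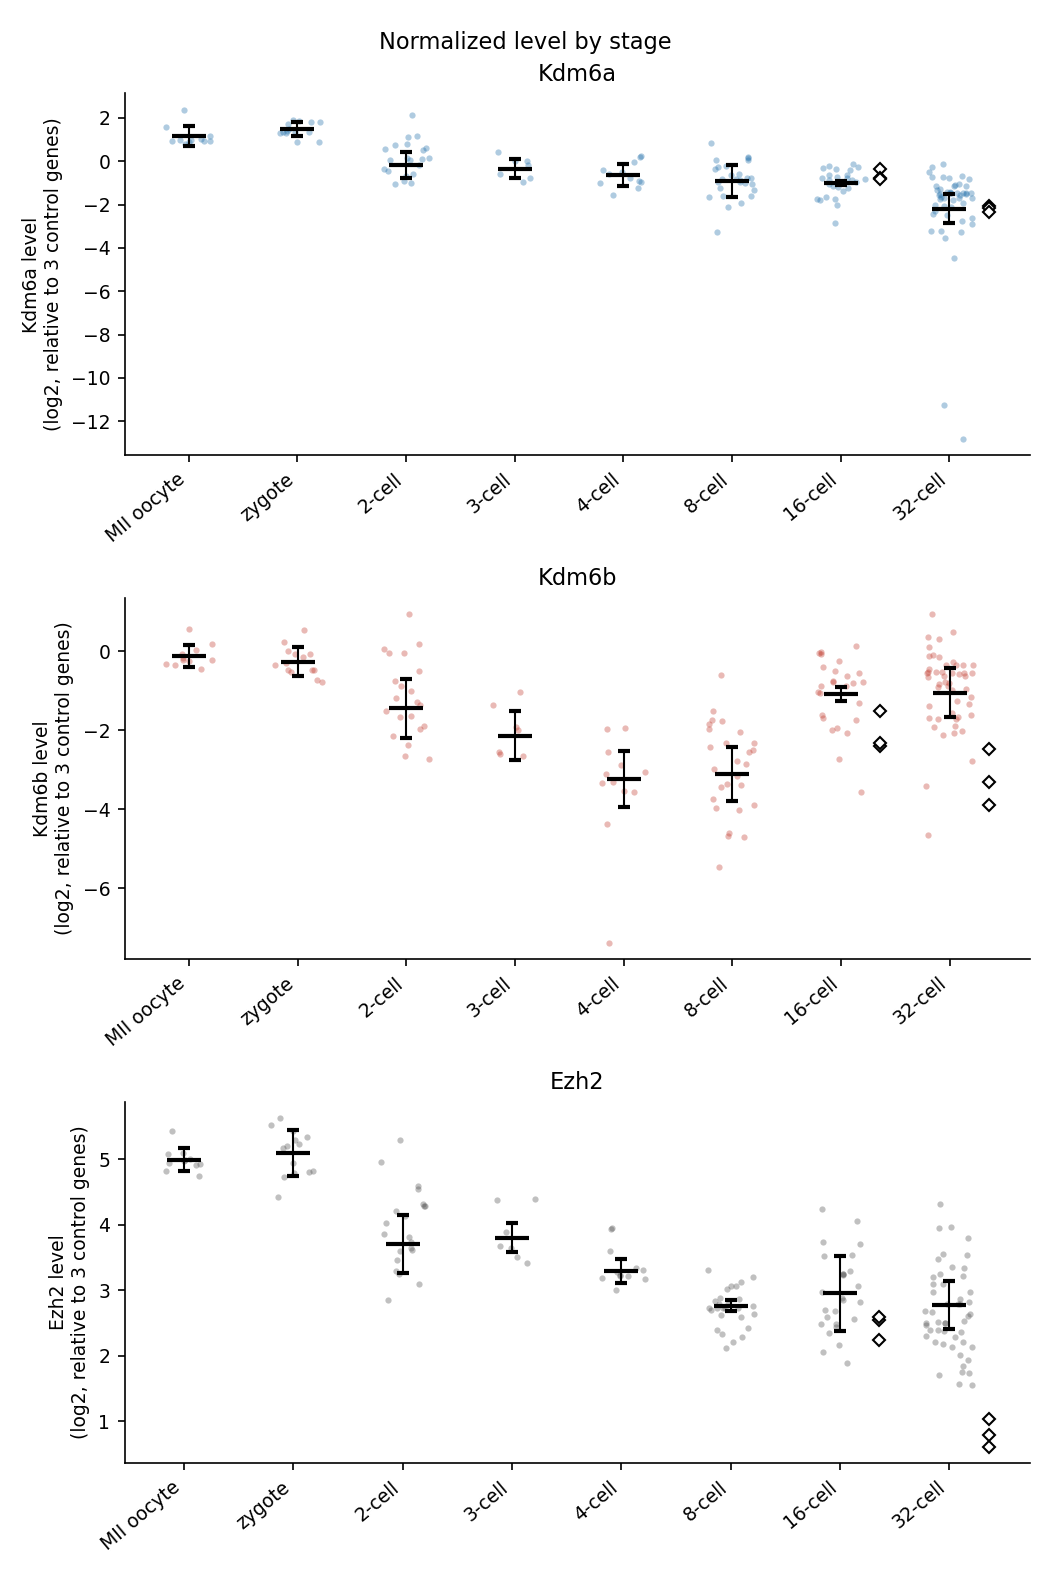
Normalized level (log2, relative to the control genes) of Kdm6a, Kdm6b and Ezh2 by stage. Coloured points are samples, black bars and whiskers the mean and SD over oocytes or embryos, and open diamonds whole 16- and 32-cell embryos, which are not part of the bars; the vertical scale differs between panels. Kdm6a declines to -2.20 at the 32-cell stage, Kdm6b is lowest at the 4-cell stage (-3.24), and the diamonds of Kdm6b and Ezh2 lie below the blastomere bars at the 32-cell stage.

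The order of Kdm6b means was MII oocyte (-0.11 ± 0.29), zygote (-0.26 ± 0.36), 32-cell (-1.05 ± 0.62), 16-cell (-1.07 ± 0.18), 2-cell (-1.44 ± 0.74), 3-cell (-2.13 ± 0.61), 8-cell (-3.11 ± 0.68) and 4-cell (-3.24 ± 0.71), with the same n as for Kdm6a. Gaps larger than the SDs on either side lay between the zygote and the 32-cell stage and between the 3-cell and the 8-cell stage. In the same limma fit Kdm6b fell by 1.18 ± 0.24 from zygote to 2-cell embryo (adjusted p = 2.21e-05). It fell by a further 1.80 ± 0.29 between 2- and 4-cell embryos (adjusted p = 7.29e-06), where 32.7% of genes changed and the median gene moved by -0.43. With the 2-cell samples titled A left out, this difference was -1.38 (adjusted p = 0.0488), and with no normalization it was -0.51 (adjusted p = 0.47). Between 4- and 8-cell embryos, where 49.4% of genes changed, it was 0.13 ± 0.30 (adjusted p = 0.754).

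Between 8- and 16-cell embryos Kdm6b rose by 2.04 ± 0.44 (adjusted p = 2.99e-04), at a step where 28.2% of all genes changed. There are 2 embryos on the 16-cell side, both sampled as blastomeres, whereas the 8-cell side includes 3 whole embryos. Leaving out each 16-cell embryo in turn gave 1.91 and 2.17, both past the test. Whole 8- and 16-cell embryos alone, relative to the same control genes, gave 0.95 (adjusted p = 0.0965). The size of the rise also depends on the reference: the deposited normalized table gave 0.16 (adjusted p = 0.805). In that table the median of all genes moved by -1.55 at this step, against 0.32 with Hnrnpr, Ssu72 and Ube2e1, and since a reference moves every gene alike, Kdm6b stood 1.71 above the median gene under both. Between 16- and 32-cell embryos, where 10.9% of genes changed, its difference was 0.03 ± 0.44 (adjusted p = 0.976). Over the span from oocyte to 16-/32-cell embryos Kdm6b fell by 0.94 ± 0.25 (adjusted p = 5.07e-04). Without Ssu72 among the control genes that value was -0.46 and no longer passed (adjusted p = 0.114). In the deposited table it was -4.50 (adjusted p = 2.81e-23), where the median of all genes moved by -3.91, Kdm6a by -6.65 and Ezh2 by -5.73.

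Ezh2, the writer, had its own decline. Its level ran from 4.74 to 5.43 (median 4.97) in MII oocytes and from 4.42 to 5.63 (median 5.19) in zygotes, and all 2-cell embryos lay below both, at 3.09 to 4.28 (median 3.79). It fell by 1.39 ± 0.14 from zygote to 2-cell embryo (adjusted p = 2.28e-12) and by 2.18 ± 0.15 from MII oocyte to 16-/32-cell embryos (adjusted p = 1.54e-19). Its difference was -0.41 ± 0.17 between 2- and 4-cell embryos (adjusted p = 0.064), and it fell by 0.53 ± 0.18 between 4- and 8-cell embryos (adjusted p = 0.0135), where the median gene moved by -0.51. That call was lost without Ssu72 (-0.36, adjusted p = 0.118), without Ube2e1 (-0.37, adjusted p = 0.0815), with no normalization (-0.20, adjusted p = 0.791), with sample medians (-0.0545, adjusted p = 0.787) and with the whole late embryos added (-0.53, adjusted p = 0.116). Between the 8-cell and 16-cell stages, where Kdm6b rose, the difference of Ezh2 was 0.19 ± 0.26 (adjusted p = 0.631), and in the deposited table it fell by 1.69 (adjusted p = 5.75e-05). Between MII oocyte and zygote 1.92% of genes changed, and Kdm6a, Kdm6b and Ezh2 were not among them.

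Differences between genes within 1 sample need no control gene. Their absolute size also holds the efficiency of each primer pair, so a gap between the Ct of 2 assays is not a ratio of transcript numbers. Only the change of a gap between samples is read here. The gap between Ezh2 and Kdm6b was narrow in spread in MII oocytes, from 4.86 to 5.29 (median 5.15), and in zygotes, from 4.95 to 5.72 (median 5.37). In 2-cell embryos it ran from 4.43 to 5.81 (median 5.10). It widened to between 5.17 and 7.20 (median 6.75) in 4-cell embryos and stood between 4.93 and 6.81 (median 5.73) in 8-cell embryos. In the 16-cell embryos it was 3.49 and 4.56, and in 32-cell embryos it lay between 3.01 and 5.14 (median 3.43). Both 16-cell embryos were below every 8-cell embryo.

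In a limma fit of all other genes relative to Ezh2 (155 genes), Kdm6b fell by 1.38 ± 0.28 between 2- and 4-cell embryos (adjusted p = 2.26e-04), where 23.2% of genes changed. It rose by 1.85 ± 0.41 between 8- and 16-cell embryos (adjusted p = 6.14e-04), where 22.6% changed. Without 16-cell replicate 4 that rise was 1.31 (adjusted p = 0.127). Over the whole span Kdm6b rose relative to Ezh2 by 1.24 ± 0.23 (adjusted p = 3.38e-06), where 81.9% of genes changed and the median gene rose by 1.83. Its differences from zygote to 2-cell embryo (0.21 ± 0.23, adjusted p = 0.401), between 4- and 8-cell embryos (0.65 ± 0.29, adjusted p = 0.0585) and between 16- and 32-cell embryos (0.20 ± 0.41, adjusted p = 0.797) did not pass, at steps where 73.5%, 43.9% and 12.9% of genes did. With the embryo number as a block the difference between 4- and 8-cell embryos was 0.72 (adjusted p = 0.0486).

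Kdm6a kept closer to Ezh2. The gap between Ezh2 and Kdm6a had medians of 3.97 in MII oocytes, 3.63 in zygotes, 3.90 in 2-cell, 4.23 in 3-cell, 4.00 in 4-cell and 3.58 in 8-cell embryos. The 16-cell embryos had gaps of 3.49 and 4.45, and the 32-cell embryos between 4.04 and 6.44 (median 4.94). The gap of 6.44 belongs to an embryo with a sample lacking Kdm6a signal. The ranges of neighbouring stages overlapped throughout. None of the 5 steps from the zygote on passed the test for Kdm6a relative to Ezh2, with differences of -0.23, -0.05, 0.23, -0.30 and -1.002 in order and adjusted p between 0.165 and 0.94. Over the whole span Kdm6a fell relative to Ezh2 by 0.91 ± 0.26 (adjusted p = 0.00127). That value was -0.54 (adjusted p = 0.0399) without the 2 samples lacking Kdm6a signal and -0.23 (adjusted p = 0.408) with the whole 16- and 32-cell embryos added. With samples as replicates and the embryo as a random block it was -0.73 (adjusted p = 0.171).

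**Figure D2:**
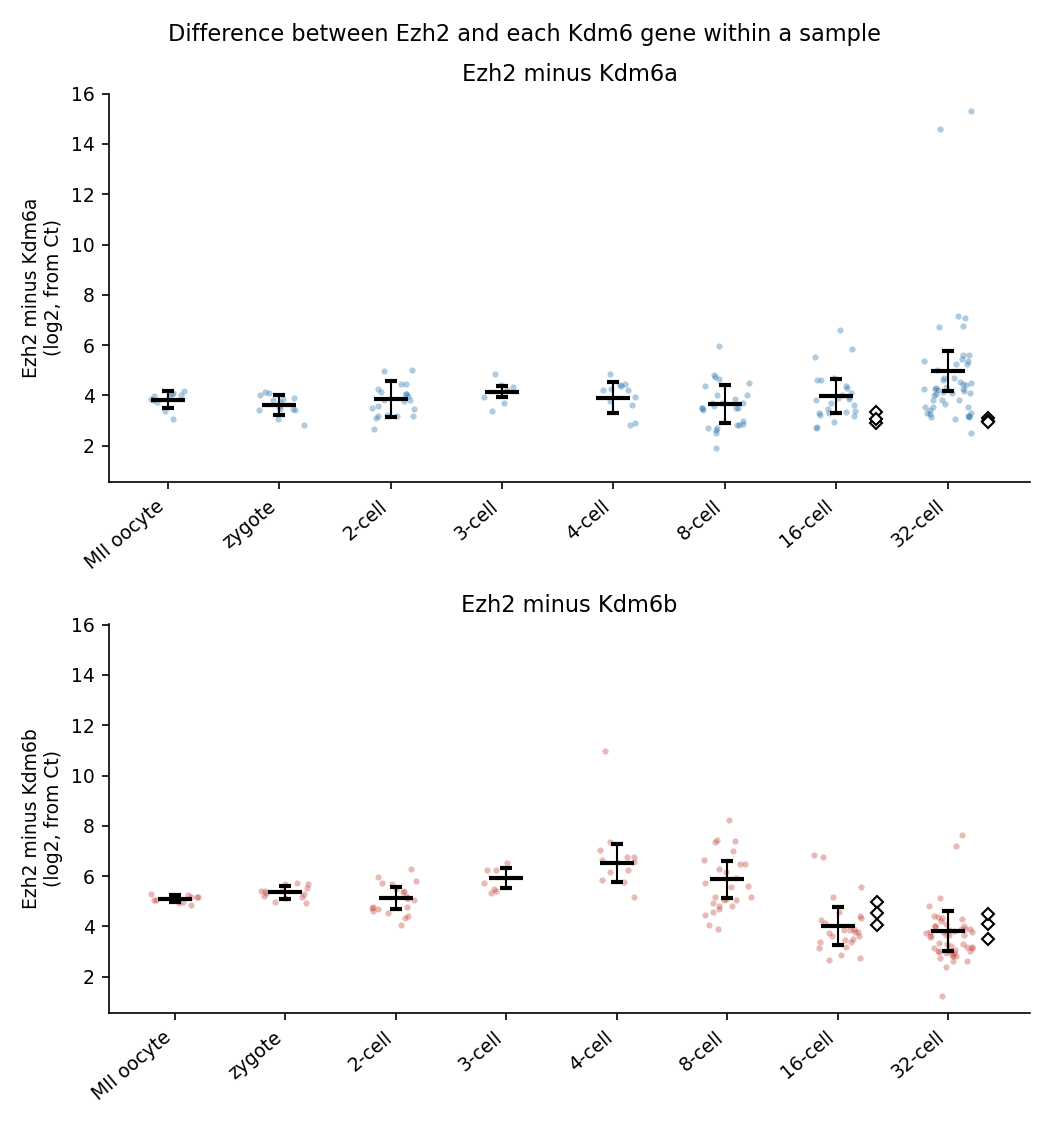
Difference between Ezh2 and Kdm6a (top) or Kdm6b (bottom) within each sample, in log2 units from the Ct, by stage. Points are samples, bars and whiskers the mean and SD over oocytes or embryos, and open diamonds whole 16- and 32-cell embryos; the 2 points above 14 are the 32-cell samples without Kdm6a signal. The Kdm6b gap is widest at the 4-cell stage (median 6.75) and narrower from the 16-cell stage on, in whole embryos too, while the Kdm6a gap stays near 4 up to the 16-cell stage.

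The gap between the paralogues, Kdm6a minus Kdm6b, changed between the 8-cell stage and the 16-cell blastomeres. It ran from 0.85 to 1.84 (median 1.25) in MII oocytes, from 1.27 to 2.38 (median 1.62) in zygotes and from 1.15 to 3.67 (median 2.22) in 8-cell embryos. It was 0.00 and 0.11 in the 16-cell embryos sampled as blastomeres and lay between -2.09 and 0.10 (median -1.08) in the 32-cell ones, all below every 8-cell embryo. Whole 16-cell embryos had 1.18, 1.49 and 1.62 and whole 32-cell embryos 0.40, 1.14 and 1.56, all above every embryo sampled as blastomeres. That order includes the samples without Kdm6a signal, which lie in 32-cell embryos 9 and 12. In a limma fit relative to Kdm6b (155 genes), Kdm6a rose by 1.34 ± 0.35 between 2- and 4-cell embryos (adjusted p = 9.51e-04), where 62.6% of genes changed and the median gene rose by 1.38. It fell by 2.14 ± 0.52 between 8- and 16-cell embryos (adjusted p = 7.50e-04), where 47.1% changed and the median gene moved by -1.72. Over the whole series, from MII oocyte to 16-/32-cell embryos, it fell by 2.15 ± 0.29 (adjusted p = 2.94e-09), where 79.4% changed and the median gene rose by 0.59, and by 1.77 (adjusted p = 5.12e-07) without the 2 samples lacking Kdm6a signal.

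Whole embryos of the 16- and 32-cell stages gave another picture than blastomeres of the same stages. Kdm6b was at -2.39, -2.31 and -1.52 in whole 16-cell embryos and at -3.89, -3.32 and -2.48 in whole 32-cell embryos. The whole 32-cell embryos lay below all 7 32-cell embryos sampled as blastomeres. Ezh2 was at 2.24, 2.55 and 2.59 in whole 16-cell embryos and at 0.61, 0.79 and 1.04 in whole 32-cell embryos, the latter again below all 7. Kdm6a was at -0.82, -0.77 and -0.34 in whole 16-cell embryos, above both 16-cell embryos sampled as blastomeres (-1.09 and -0.95). It was at -2.33, -2.17 and -2.08 in whole 32-cell embryos, inside the range of the 7 sampled as blastomeres (-3.49 to -1.63). The low end of that range is an embryo with a sample lacking Kdm6a signal.

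In a limma fit with whole embryos as groups of their own, a comparison chosen after seeing the data, Kdm6b was 2.18 ± 0.38 lower on the log2 scale in whole 32-cell embryos than in embryos sampled as blastomeres (difference -2.18, adjusted p = 4.71e-06), and Ezh2 was lower too (difference -1.96 ± 0.22, adjusted p = 1.40e-10). Of all genes, 40.4% differed at this stage. The difference of Kdm6a was 0.00 ± 0.35 (adjusted p = 0.995), and -0.46 (adjusted p = 0.262) without the 2 samples lacking Kdm6a signal. At the 16-cell stage 3.21% of genes differed, and the differences of Kdm6b (-1.002 ± 0.50, adjusted p = 0.406), Ezh2 (-0.49 ± 0.29, adjusted p = 0.513) and Kdm6a (0.37 ± 0.46, adjusted p = 0.934) did not pass. Whole embryos and blastomeres overlapped in Kdm6b at the 4-cell stage (whole -3.53, -3.06 and -1.96; 9 blastomere samples from -7.38 to -1.93) and at the 8-cell stage (whole -3.89, -2.85 and -2.33; 24 blastomere samples from -5.45 to -0.60).

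The 32-cell sets differed in the levels of cell type markers. The mean level of the trophectoderm markers Cdx2, Gata3, Krt8, Tspan8 and Hand1 lay between -0.66 and -0.34 in whole 32-cell embryos and between -11.82 and -0.46 (median -7.01) in 32-cell blastomere samples. All 5 were detected in each set, and 4 of the 5 were higher in the whole embryos by the same fit, among them Gata3 (adjusted p = 1.74e-07), which was detected in 26 of 50 blastomere samples. Of the inner cell mass markers Nanog, Pou5f1, Sox2, Klf2 and Esrrb, 1 of 5 was lower in the whole embryos, Pou5f1 (difference -0.93 ± 0.35, adjusted p = 0.029). At the 16-cell stage 0 of 5 trophectoderm markers and 1 of 5 inner cell mass markers differed, with Sox2, detected in 8 of 26 blastomere samples, higher in the whole embryos (adjusted p = 0.0022). No size is given for these markers because undetected values enter at a Ct of 30, as they do in the mean levels above. The part of the cell types in the Kdm6b and Ezh2 differences was not tested. Control-gene Ct also differed, with means of 12.6 in whole 32-cell embryos and 17.5 in the 32-cell blastomere samples.

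Relative to Ezh2, Kdm6b rose in both kinds of sample. The gap between Ezh2 and Kdm6b was 5.05, 5.73 and 6.64 in whole 8-cell embryos. It was 4.07, 4.55 and 4.97 in whole 16-cell embryos and 3.51, 4.11 and 4.50 in whole 32-cell embryos. All 6 late whole embryos lay below every whole 8-cell embryo. In a fit of whole oocytes and embryos relative to Ezh2, also chosen after seeing the data, Kdm6b rose by 1.28 ± 0.32 between 8- and 16-cell embryos (adjusted p = 0.00213), where 37.4% of 155 genes changed and the median gene rose by 0.70. Leaving out each whole embryo in turn moved this between 0.86 and 1.66, and it stayed past the test each time. From MII oocyte to whole 32-cell embryo the rise was 1.06 ± 0.26 (adjusted p = 2.93e-04), where 91.6% changed and the median gene rose by 3.52. Set against blastomere samples, whole embryos differed in Kdm6b relative to Ezh2 by -0.51 ± 0.47 at the 16-cell stage (adjusted p = 0.609) and by -0.22 ± 0.35 at the 32-cell stage (adjusted p = 0.582).

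For Kdm6a relative to Ezh2 the direction was opposite in the 2 kinds of sample, over spans that end at different stages. On the values normalized to the control genes, whole 32-cell embryos differed from those sampled as blastomeres by 0.00 in Kdm6a and by -1.96 in Ezh2. The gap was 2.89, 3.06 and 3.36 in whole 16-cell embryos and 2.94, 2.97 and 3.12 in whole 32-cell embryos, below every one of the 32-cell embryos sampled as blastomeres. From MII oocyte to whole 32-cell embryo Kdm6a rose relative to Ezh2 by 0.83 ± 0.26 (adjusted p = 0.00345). The fall of 0.91 above ran from MII oocyte to 16-/32-cell embryos sampled as blastomeres. Whole 32-cell embryos stood 1.96 ± 0.38 above 32-cell embryos sampled as blastomeres in Kdm6a relative to Ezh2 (adjusted p = 1.99e-05), where 59.4% of genes differed and the median gene stood 1.45 higher, and 1.49 (adjusted p = 5.38e-04) above them without the 2 samples lacking Kdm6a signal. At the 16-cell stage the difference was 0.87 ± 0.51 (adjusted p = 0.35), where 7.1% differed. Kdm6a relative to Ezh2 did not pass in whole embryos from zygote to 2-cell (-0.47 ± 0.25, adjusted p = 0.0958), from the 8-cell to the 16-cell (0.48 ± 0.32, adjusted p = 0.243) or between 16- and 32-cell embryos (0.10 ± 0.32, adjusted p = 0.841). Between whole 2- and 4-cell embryos, where 0.645% of genes changed, the difference of Kdm6b relative to Ezh2 was -0.63 ± 0.32 (adjusted p = 0.46), and none of its alternatives passed, unlike the fall of 1.38 in the fit of all samples. Kdm6b also did not pass from zygote to 2-cell (-0.07 ± 0.25, adjusted p = 0.803) or between 16- and 32-cell embryos (0.49 ± 0.32, adjusted p = 0.212), where 72.9% and 51.6% of genes changed. Without 1 of the whole 2-cell embryos, replicate 2, the difference of Kdm6a from zygote to 2-cell was -0.91 (adjusted p = 0.00306).

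**Figure D3:**
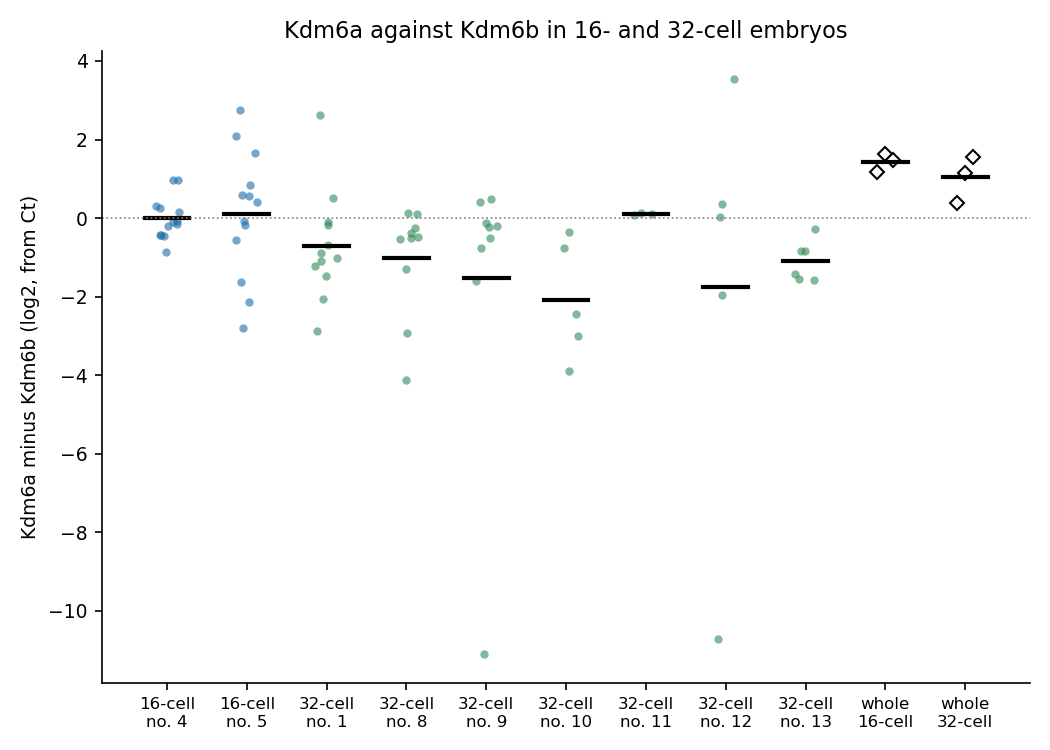
Kdm6a minus Kdm6b (log2, from the Ct) in each 16-cell (blue) and 32-cell (green) blastomere sample by embryo, numbered as in the sample titles, and in whole embryos (diamonds); black bars are means. The embryo means lie at 0.00 and 0.11 at the 16-cell stage and between -2.09 and 0.10 at the 32-cell stage. The 6 whole embryos lie above all of them, from 0.40 to 1.62. The dotted line marks equal Ct, a position that also holds primer efficiency. The points below -10 are the samples without Kdm6a signal, which the embryo means include.

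A tube that holds a whole oocyte or embryo was also read with no control gene, as its total signal. Transcripts per cell, the number of cells and the yield of lysis, reverse transcription and preamplification cannot be told apart in such a tube. Kdm6a in MII oocytes gave 30 minus Ct values from 17.7 to 20.1 (median 18.1) and in zygotes from 17.6 to 19.8 (median 18.4). It stood at 13.3, 15.3 and 16.3 in whole 2-cell embryos, at 14.8, 14.9 and 15.7 in 4-cell embryos and at 15.5, 16.2 and 16.5 in 8-cell embryos. The whole 16-cell embryos reached 17.8, 18.9 and 19.1, which is within the range of the oocytes and zygotes, and the 32-cell embryos were back at 14.4, 15.4 and 15.7. Kdm6b ran from 16.2 to 18.3 (median 16.9) in MII oocytes and from 16.1 to 17.6 (median 16.7) in zygotes. It stood at 13.4, 13.6 and 13.8 in 2-cell, at 12.6, 13.0 and 13.5 in 4-cell and at 13.10, 13.22 and 15.14 in 8-cell embryos, then at 16.6, 17.4 and 17.5 in 16-cell and at 14.0, 14.1 and 14.2 in 32-cell embryos. No whole 2-, 4-, 8- or 32-cell embryo reached the lowest oocyte or zygote for either gene.

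On this scale Kdm6a fell by 3.60 ± 0.46 (adjusted p = 1.37e-08) and Kdm6b by 3.19 ± 0.35 (adjusted p = 6.45e-10) from zygote to 2-cell embryo, where 77.6% of genes changed and the median gene moved by -1.79. Neither passed the test between 2- and 4-cell embryos or between 4- and 8-cell embryos, where 0.641% and 25.6% of genes changed, and no alternative setting called them there. Between 8- and 16-cell embryos Kdm6a rose by 2.57 ± 0.59 (adjusted p = 1.93e-04) and Kdm6b by 3.36 ± 0.45 (adjusted p = 6.32e-08). At that step 80.1% of genes changed, the median gene by 2.79, and 124 of the 125 genes called were higher. The control genes took part in it, with a mean Ct of 13.2 in whole 8-cell and 10.7 in whole 16-cell embryos, and relative to them the rises were 0.16 (adjusted p = 0.808) for Kdm6a and 0.95 (adjusted p = 0.0965) for Kdm6b. Between 16- and 32-cell embryos Kdm6a fell by 3.45 ± 0.59 (adjusted p = 5.10e-06) and Kdm6b by 3.06 ± 0.45 (adjusted p = 5.67e-07), with 65.4% of genes changed and the median gene at -2.46. Relative to the control genes these falls were 1.55 (adjusted p = 1.25e-04) and 1.16 (adjusted p = 0.0307), whereas Kdm6b in the blastomere samples differed by 0.03 at this step. Between MII oocyte and whole 32-cell embryo the falls were 3.07 ± 0.47 for Kdm6a (adjusted p = 5.00e-07) and 2.84 ± 0.36 for Kdm6b (adjusted p = 1.32e-08), where 83.3% changed. Ezh2 fell by 3.90 ± 0.34 over the same span (adjusted p = 1.37e-12).

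**Figure D4:**
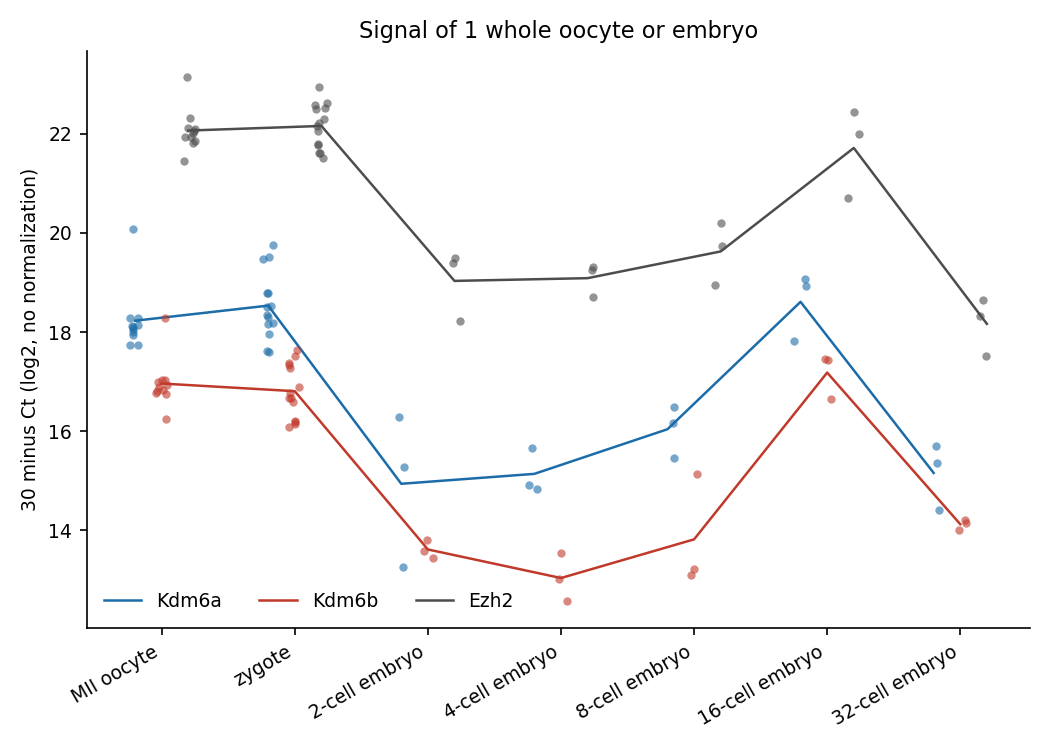
Signal of 1 whole oocyte or embryo as 30 minus Ct (log2, no normalization) for Kdm6a, Kdm6b and Ezh2. Points are single oocytes or embryos and lines join the group means. All 3 genes fall at the 2-cell stage, return near the oocyte range in the 16-cell embryos and fall again in the 32-cell embryos; distances between lines also hold primer efficiency.

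Sister blastomeres of 1 embryo were more spread in Kdm6b than in Ezh2, except in one 4-cell embryo, and this was not tested. Over embryos with at least 3 single blastomeres, the median within-embryo SD of Kdm6b was 1.31, 1.15, 0.91 and 1.11 in 4-, 8-, 16- and 32-cell embryos. The median gene had 0.52, 0.60, 0.89 and 1.02. Kdm6a stayed near the median gene, at 0.48, 0.51, 0.68 and 1.11, and Ezh2 below it, at 0.35, 0.25, 0.43 and 0.63. The 32-cell embryo with a single blastomere lacking Kdm6a signal had a Kdm6a SD of 4.87. The Kdm6b spread was uneven between embryos. It was 0.12 in one 4-cell embryo and 2.49 in the other, where the 4 sisters ran from -7.38 to -1.93, and it lay between 0.49 and 1.95 in the 4 embryos of the 8-cell stage. As a measure of the assay, 3 repeats of 200 pg ESC RNA gave SDs of the Ct of 0.25 for Kdm6a, 0.11 for Kdm6b and 0.08 for Ezh2.

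Both demethylases had weak coefficients with the split into inner cell mass and trophectoderm. The lineage score of a sample is the mean level of 12 inner cell mass genes minus that of 8 trophectoderm genes, as the study defined it. Over 76 samples of the 16- and 32-cell stages Spearman's rho with this score was 0.01 for Kdm6b, -0.28 for Kdm6a and 0.17 for Ezh2, and 134 of 156 genes had a higher rho than Kdm6a. Within stages rho was 0.12 (16-cell, 26 samples) and -0.21 (32-cell, 50 samples) for Kdm6a, and -0.17 and 0.00 for Kdm6b. Embryos disagreed in sign for Kdm6b, with 0.59 over 12 samples of 32-cell embryo 1 and -0.62 over 9 samples of embryo 9. The samples share embryos, so these coefficients are descriptions. The control-gene Ct moved with both genes, with rho of -0.40 for Kdm6a and 0.38 for Kdm6b, and its part was not tested. Across the same samples Kdm6b and Ezh2 had a rho of 0.36, Kdm6a and Ezh2 of 0.14, and Kdm6a and Kdm6b of -0.09.

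The isolated inner cell mass and trophectoderm, 1 sample each, were alike in both demethylases and apart in the writer. Kdm6a was at -2.20 and -1.98 and Kdm6b at -2.23 and -1.92, in that order, whereas Ezh2 was at 2.41 and 0.84. With 1 sample each there is no test. Sox2, at -0.17 and -6.01, and Cdx2, at 0.43 and 1.84, differed in the direction of the labels, but Cdx2 and Gata3 were also detected in the inner cell mass sample and Pou5f1 in both.

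ESC RNA of known amount gave a check of the assays. Over 10 aliquots the normalized level of Kdm6a ran from -1.20 to -0.12 (median -0.87), that of Kdm6b from -2.26 to -0.56 (median -1.27) and that of Ezh2 from 3.21 to 4.60 (median 3.56). These ranges overlap those of the blastomere samples for all 3 genes at every stage from the 2-cell to the 32-cell, so they single out no stage. Per doubling of RNA the Ct of Kdm6a changed by -1.0 in both dilution series, and that of Ezh2 by -0.97 and -1.10. Kdm6b was less regular, with -1.43 over 25 to 200 pg (4 points) and -0.78 over 32 to 800 pg (3 points), where the median gene had -1.05 and -1.14.

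**Figure D5:**
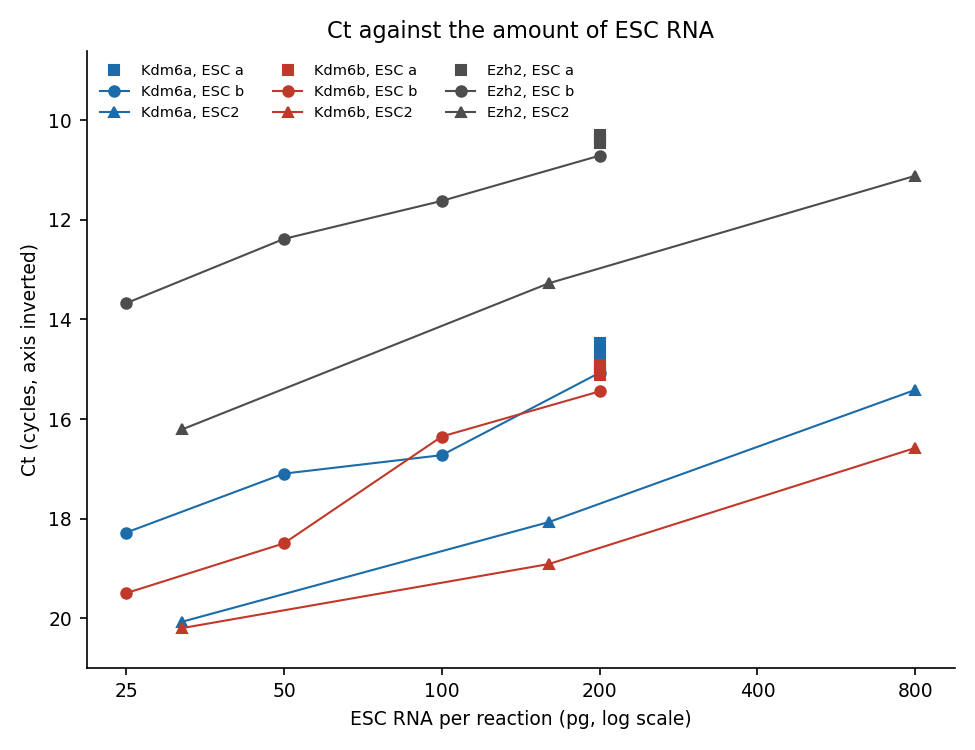
Ct (cycles, axis inverted so that more template lies higher) against the amount of ESC RNA per reaction (pg, log scale) for Kdm6a, Kdm6b and Ezh2 in the sample series titled ESC a, ESC b and ESC2. Kdm6a and Ezh2 fall by about 1 cycle per doubling in both series, Kdm6b by 1.43 and 0.78.

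Among the other genes of the pathway, the PRC2 list (Ezh1, Ezh2, Eed, Suz12, Jarid2, Mtf2 and Phf19) held 5 of 7 members that fell and 1 that rose from zygote to 2-cell embryo, with a median difference of -1.39 against -0.33 for all 156 genes, of which 61 fell and 46 rose (68.6% called). Eed fell by 2.79 ± 0.17 (adjusted p = 3.98e-21) and Ezh1 by 1.08 ± 0.19 (adjusted p = 1.57e-06). Mtf2, a Polycomb-like accessory subunit, rose by 1.90 ± 0.26 (adjusted p = 4.22e-09). At the 8-cell to 16-cell step, where Kdm6b rose, 4 of the 7 rose and none fell (median 0.87 against 0.32; of all genes 31 rose and 13 fell, 28.2%), with Jarid2, an accessory subunit, up by 2.22 ± 0.45 (adjusted p = 1.34e-04). The direction turned with the reference: at this step none rose and 4 of the 7 fell in the deposited table. Over the whole span 5 of the 7 fell and 2 rose, where 73 of all genes fell and 59 rose (84.6%), and all 7 fell in the deposited table. A reference moves every gene alike, so the list median minus that of all genes is the same under either by arithmetic. It was 0.55 at the 8-cell to 16-cell step and -1.57 over the whole span.

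Phf8 and Jhdm1d (Kdm7a), Jumonji demethylases of the KDM7 family that act on other residues and for Kdm7a also on H3K27, both fell over the series. Jhdm1d fell by 5.11 ± 0.19 (adjusted p = 5.37e-30) and Phf8 by 4.12 ± 0.27 (adjusted p = 1.35e-19) from MII oocyte to 16-/32-cell embryos. Of the 22 other lysine demethylase and Jumonji genes, 9 rose, 10 fell and 3 did not pass over that span, a share close to the 84.6% of all genes, and 1 rose and 17 fell in the deposited table. At the 2-cell to 4-cell step, where Kdm6b fell, 4 of the 22 rose and 2 fell, with a median difference of 0.35 against -0.43 for all genes, of which 32.7% changed (6 fell and 2 rose in the deposited table). Kdm1a (LSD1), an H3K4 demethylase, rose there by 1.15 ± 0.26 (adjusted p = 7.14e-04).

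Ash2l, a gene of the COMPASS-like complexes that hold Kdm6a, rose by 2.60 ± 0.20 over the series (adjusted p = 1.44e-17). The assay named Mll2 fell by 1.80 ± 0.21 (adjusted p = 7.51e-11). That symbol has been used for Kmt2b as well as Kmt2d, and the study gives it as Kmt2b. It is therefore not counted here as a partner of Kdm6a. Mll3 (Kmt2c), detected in 37 of 50 32-cell samples, differed by -0.06 ± 0.61 (adjusted p = 0.933). In the deposited table all 3 fell. Of 6 other X-linked genes 3 fell, 2 rose and 1 did not pass, again close to the 84.6% of all genes (4 fell and 2 rose in the deposited table). Atrx fell by 3.23 ± 0.20 (adjusted p = 9.80e-21) and Kdm5c, another X-linked demethylase, differed by 0.31 ± 0.19 (adjusted p = 0.13). Xist, the RNA that coats the inactive X, rose by the same fit (adjusted p = 2.08e-06), but it was detected in 4 of 11 MII oocytes and in 39 of 50 32-cell samples, so values at a Ct of 30 set the size of its difference and none is given.

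The genes whose normalized level was most like that of Kdm6a over the 58 oocytes and embryos, by Pearson's r, were Atrx (0.91), Pcgf1 (0.91), Kdm1b (0.88) and Dppa3 (0.88), followed by Ezh2 (0.87). For Kdm6b they were Setd6 (0.87), Cbx1 (0.87), Ash1l (0.85) and Setd3 (0.84). Ezh2 was 16th for Kdm6b. Kdm6a and Kdm6b had an r of 0.57 with each other. These 58 points share stages and control genes, and the coefficients are descriptions. The genes like Kdm6a were lowest at the 32-cell stage, with Atrx at 3.67 in zygotes and 0.65 in 32-cell embryos. Those like Kdm6b were lowest at the 8-cell stage, or for Setd6 at the 4-cell stage, with Cbx1 at 0.78 in zygotes, -2.43 in 8-cell and 0.04 in 32-cell embryos.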

How the data were processed

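The 192 assays were read in 189 samples on Fluidigm BioMark chips. The authors deposited a table of Ct values (unit score: 1 number per gene and sample, with 30 for no signal), a table of normalized log2 values, and a quality mark per gene, by which 36 assays were left out. The deposited log2 values proved to be relative to Gapdh, Hspa8 and Lmnb1, so levels were recomputed from the Ct relative to Hnrnpr, Ssu72 and Ube2e1, the control genes the study's methods name. Primer or genome build was not given in the sources used here; names and coordinates come from RefSeq GRCm38.p6. Preamplified Ct values keep no read depth, so the control-gene Ct stands for the amount of template.

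Groups come from the sample labels. The 3 samples absent from the study's own list were left out. Samples of 1 embryo were averaged and stages compared with limma 3.58.1 (lmFit, eBayes, R 4.3.3), two-sided, with Benjamini-Hochberg adjustment over all passed genes per comparison and a threshold of 0.05. Replicates are separate oocytes or embryos. The same fits were run relative to Ezh2, relative to Kdm6b and, in whole oocytes and embryos, with no normalization. The pipeline was tested on simulated data. Alternatives were other control genes, filters, sample sets, a random embryo block, a fixed replicate block and leaving out single embryos. Genes named besides the members belong to 5 lists of related genes, with values for at most 4 members each, or are the 4 genes most like each member. The members, lists and tests were chosen with earlier results of these data known.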

Additional observations from a re-analysis of the deposited data

Results flagged for a closer look

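In 3 results the kind of sample, whole embryo or blastomeres, gave a different value at the 32-cell stage by the test of the difference itself. Whole 32-cell embryos minus 32-cell embryos sampled as blastomeres gave -2.18 for Kdm6b and -1.96 for Ezh2 on the values normalized to the control genes, and 1.96 for Kdm6a relative to Ezh2. Kdm6a normalized to the control genes differed by 0.00, so the last value repeats the Ezh2 difference. All 3 whole embryos lay on the same side of all 7 embryos sampled as blastomeres in each case. Of the 5 trophectoderm markers, 4 were higher in the whole embryos, as given in the report.

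Dixon's test was run on 30 combinations of a quantity and a group of 4 to 10 embryos or ESC RNA samples. No value stood apart from its group, and chance alone flags about 1 in 20 such groups. Groups outside that size were not checked, among them the MII oocytes (n = 11) and zygotes (n = 14). In the MII oocytes the highest Kdm6a level was 2.37 and the next 1.59.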

How the results depend on the processing

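Of the recomputed values for Kdm6a and Kdm6b over all alternatives, 702 kept their direction and side of the threshold, 26 turned direction, 15 passed it newly and 9 no longer did. For Ezh2 the counts were 205, 9, 5 and 5. Leaving out an embryo of another stage cannot move a difference, only its p. The counts of kept values include such cases, so they are not a measure of robustness. With no normalization the differences between 2- and 4-cell embryos were 0.82 (Kdm6a), -0.51 (Kdm6b) and 0.87 (Ezh2), between 4- and 8-cell embryos 0.0302 (Kdm6a), between 8- and 16-cell embryos 0.68 (Kdm6b) and -1.17 (Ezh2), and between 16- and 32-cell embryos -3.15 (Kdm6a) and -1.94 (Kdm6b). The deposited table gave, in the same order of steps, -0.77 (Kdm6a), -0.0525 (Kdm6b), -1.98 (Kdm6a), 0.16 (Kdm6b) and -1.69 (Ezh2), and -2.34 (Kdm6a) and -1.13 (Kdm6b). Sample medians in place of control genes gave 0.18 (Kdm6a, 4- to 8-cell), -0.21 (Ezh2, 8- to 16-cell), -1.43 (Kdm6a) and -0.23 (Kdm6b, both 16- to 32-cell). Without Hnrnpr the values were -0.19 (Kdm6b, 4- to 8-cell), -1.35 (Kdm6a) and -0.15 (Kdm6b, both 16- to 32-cell), without Ube2e1 -1.35 and -0.14 at the last step, and without Ssu72 0.16 (Ezh2, 16- to 32-cell) and -0.46 (Kdm6b, MII oocyte to 16-/32-cell, no longer past the threshold). With the whole 16- and 32-cell embryos added they were 0.12 (Kdm6a) and -0.11 (Ezh2) between 8- and 16-cell embryos, -1.40 (Kdm6a) and -0.0285 (Kdm6b) between 16- and 32-cell embryos, 0.22 and -0.23 for Kdm6a relative to Ezh2 (8- to 16-cell and whole span), and -1.38 for Kdm6a relative to Kdm6b (16- to 32-cell). Single cells alone gave -0.00812 for Kdm6b between 16- and 32-cell embryos, and relative to Ezh2 0.11 (Kdm6a, 2- to 4-cell) and 1.08 (Kdm6b, 4- to 8-cell). The embryo as a random block gave 0.96 for this last value and -0.73 for Kdm6a relative to Ezh2 over the whole span. Leaving out either set of 2-cell samples, titled A or not, left Kdm6a between 16- and 32-cell embryos at -1.18, now past the threshold. Without the 2 samples lacking Kdm6a signal, a setting chosen after seeing the data, Kdm6b between 16- and 32-cell embryos was -0.00697 and Kdm6a in whole against blastomere-sampled 32-cell embryos -0.46. Whole embryos relative to the control genes gave 0.16 (Kdm6a), 0.95 (Kdm6b) and -0.33 (Ezh2) between 8- and 16-cell embryos. The cause of these changes was not tested.

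Leaving out 1 embryo at a time moved Ezh2 between 8- and 16-cell embryos over -0.22 to 0.60 and between 16- and 32-cell embryos over -0.59 to 0.23, and Kdm6b in the latter over -0.10 to 0.15. Relative to Ezh2 the ranges were -0.77 to 0.18 (Kdm6a) and 1.31 to 2.38 (Kdm6b) between 8- and 16-cell embryos and -0.33 to 0.74 (Kdm6b) between 16- and 32-cell embryos. In whole oocytes and embryos relative to Ezh2 they were -0.91 to -0.0356 (Kdm6a) and -0.39 to 0.13 (Kdm6b) from zygote to 2-cell embryo and -0.0287 to 0.20 (Kdm6a) between 16- and 32-cell embryos. Whole minus blastomere-sampled 32-cell embryos ranged over -0.0552 to 0.0696 for Kdm6a, and relative to Ezh2 over -0.49 to 0.00873 for Kdm6b.

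Replicate numbers did not pair the samples: over 112 same-number pairs the median correlation of deviations was 0.00695. With the replicate block, Kdm6b relative to Ezh2 between 4- and 8-cell embryos was 0.72, the only call on the members that it changed.

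Counts of genes past the threshold moved most between 2- and 4-cell embryos (51, and 6 without 2-cell samples titled A or 32 in single cells), between 8- and 16-cell embryos (44, and 16 to 79) and between 16- and 32-cell embryos (17, and 6 to 52). They also moved between 4- and 8-cell embryos (77, and 42 with no normalization), from MII oocyte to zygote (3, and 0 to 12), and for whole against blastomere-sampled 32-cell embryos (63, and 41 in the deposited table). Relative to Ezh2 they were 35 and 20 between 8- and 16-cell embryos and 20 and 3 to 44 between 16- and 32-cell embryos, relative to Kdm6b 73 and 28 between 8- and 16-cell embryos. In whole oocytes and embryos, values relative to the control genes gave 62 in place of 40, 49 in place of 125 and 64 in place of 102 at the steps from the 4-cell stage on, and 2 in place of 1 between 2- and 4-cell embryos, where leaving out whole 2-cell replicate 2 gave 4. In the 2 samples at a Ct of 30 the Kdm6a level is a bound.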
